A study of Mus musculus with 8 samples.

Results

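Integrins and laminins were described here as a family of 35 genes: 17 integrin α chains, 8 integrin β chains, 5 laminin α chains, 3 laminin β chains and 2 laminin γ chains. The members were chosen by gene symbol from a fixed list, among 24063 genes in the RNA-seq libraries. The rule used no measured value, but the list was made with earlier results of these data known. RNA came from tubuloids, structures resembling kidney tubules that were grown between layers of Matrigel from tubule fragments of mouse kidney. Every culture had the genotype Pkd2fl/fl Pax8rtTA TetOCre mTmG, which combines floxed Pkd2 alleles, a doxycycline-dependent activator, a Cre gene under its control and a membrane colour reporter. The 4 DOX cultures received doxycycline, which switches on Cre, and the 4 DMSO cultures received the vehicle, dimethyl sulfoxide, so that both groups carried every allele. Treatment began on day 3 of culture and lasted 3 days, and RNA was taken after 7 days of culture. The labels gave the kidneys as postnatal day 7 to 10, and the study's methods gave a younger range. Because the activator is driven by the Pax8 promoter, recombination is limited to cells of the renal epithelium, and the undifferentiated prestructures that grow beside the tubuloids lie outside its reach. Nothing in the labels tied a library to an animal, so the p-values measure the spread between these libraries only.

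An integrin is a receptor made of an α and a β chain that spans the plasma membrane and links the extracellular matrix to the actin or keratin cytoskeleton. A laminin is a secreted trimer of an α, a β and a γ chain that assembles into the sheet of the basement membrane, on which every kidney tubule rests. In the developing kidney, laminin receptors hold the tubule epithelium on its basement membrane, and the receptor pair of Itga8 and Itgb1 on the mesenchyme is needed for ingrowth of the ureteric bud. Matrigel is itself rich in laminin protein, the products of Lama1, Lamb1 and Lamc1 of the mouse tumour it is made from, but the RNA measured here is that of the cultured cells.

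No integrin or laminin chain passed the test between DOX and DMSO. DESeq2 called 0 of the 35 chains (adjusted p up to 0.05 with 1.5-fold or more), beside 25 of 17011 genes with an adjusted p, a share of 0.147%. At an unadjusted p under 0.05 it passed 0 of the 34 chains with a p, beside 4.67% of 19268 genes, and the smallest p was that of Lama2 at 0.0552. The quasi-likelihood test of edgeR called 0 of 15562 genes, a share of 0%, and passed 476 of them, 3.06%, at an unadjusted p under 0.05, of which 0 were among the 32 chains it tested. In 0 of the 35 chains did all DOX libraries lie on one side of all DMSO libraries, against 2.71% of 17633 genes. The point estimates were higher with DOX for 14 chains and lower for 21. The median log2 fold change was -0.30 for the 25 integrin chains and 0.08 for the 10 laminin chains, beside -0.08 for 19634 genes. Without DMSO 15 it was -0.02 for the integrins and -0.02 for the laminins, beside -0.03 for 19478 genes. With 1 library left out it ran from -0.36 to -0.02 for the integrins and from -0.07 to 0.34 for the laminins. Among the 21 chains with a mean of at least 1000 normalised counts, 10 were higher, 11 were lower and 4 were past 1.5-fold in either direction, and 13.2% of 9084 genes at that level were past it.

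RNA of Pkd2, the targeted gene, had 6130 ± 1114 normalised counts (SD, n = 4) in DMSO and 4946 ± 772 in DOX. The log2 fold change was -0.31 ± 0.215 (SE) with a DESeq2 adjusted p of 0.999. These counts cover the whole gene and all cells of a culture, so they do not measure recombination. The paper reported less polycystin-2, the protein of Pkd2, on western blots after doxycycline, with some protein still detectable. Total counts per library ran from 63922677 to 102716313. DMSO 20 and DOX 19 stood apart, with 13243 and 13599 genes detected against 17054 to 17903 in the others, and with 25 of the 35 chains detected in each against 32 to 34. The chains took 0.280% to 0.508% of the counts of a library. Of the cell type markers, all 8 of tubule epithelium were detected in every library, with a summed TPM (a level scaled for transcript length and library total) of 472 to 2128 in DMSO and 614 to 1424 in DOX. Stromal markers summed to 261 to 2629 TPM in DMSO and 494 to 840 in DOX, and 6 of the 8 were detected in every library; Dcn was at 0 in DMSO 20 and Lum at 0 in DOX 19.

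**Figure D1:**
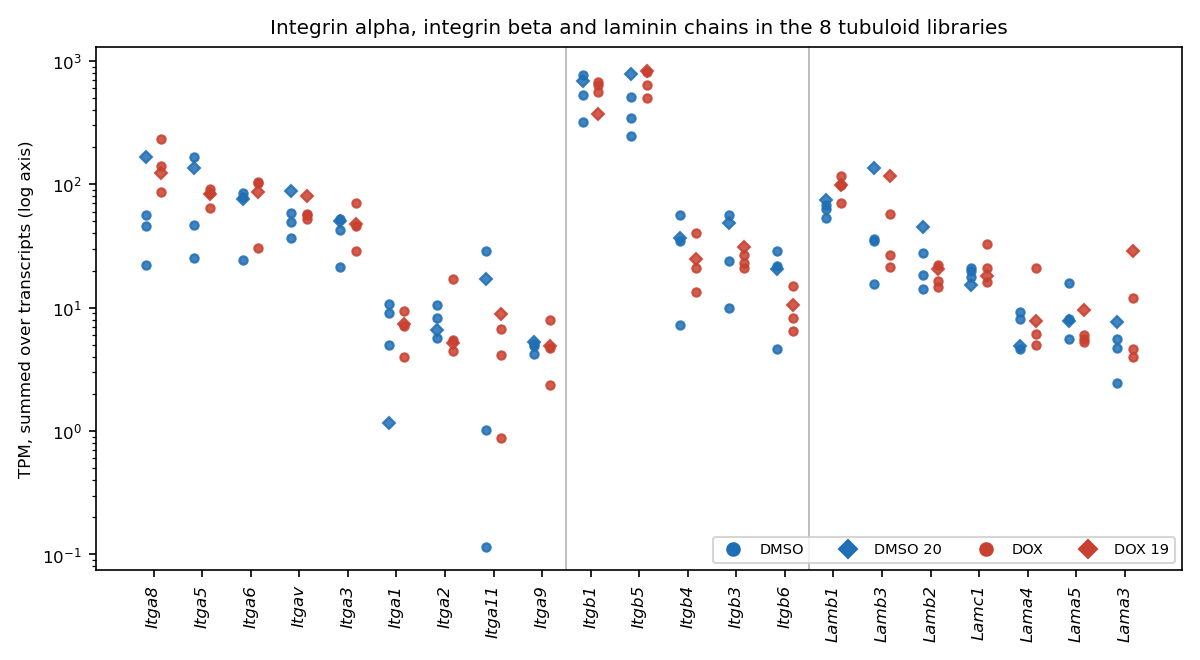
Level of the 21 integrin and laminin chains with a mean of at least 1000 normalised counts, in TPM summed over transcripts (vertical axis, log scale), with 1 point per library; blue is DMSO, red is DOX, and diamonds mark DMSO 20 and DOX 19. Itgb1 and Itgb5 lie highest, and the points of both groups interleave for every chain.

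The β chains Itgb1 and Itgb5 were the most abundant members. Itgb1, the partner of most matrix-binding α chains, had 533, 318, 767 and 684 TPM in DMSO 3, 5, 15 and 20 and 635, 674, 371 and 562 TPM in DOX 9, 12, 19 and 21. It was lowest in DMSO 5 and highest in DMSO 15, with the DOX libraries between them, and its log2 fold change in counts was -0.17 ± 0.374 (SE, DESeq2 adjusted p = 0.999). Itgb5, which pairs with Itgav to bind vitronectin, had 347, 248, 513 and 787 TPM in the DMSO libraries and 503, 632, 831 and 819 TPM in the DOX libraries, in the same order. DMSO 20 lay above DOX 9 and DOX 12, and DMSO 15 above DOX 9, and the change of 0.48 ± 0.419 had an adjusted p of 0.999 by DESeq2. Its deposited transcripts differed by 0.00378% in total count, so the same reads seem to be counted for both, and the median of its most counted transcript was 285 TPM against 573 for the sum. Itgb1 has a single deposited transcript with a median of 599 TPM and stood first either way.

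The laminin-binding α chains Itga3 and Itga6 form, with Itgb1 and Itgb4, the receptors that hold epithelium on laminin, the pair of Itga6 and Itgb4 being the core of the hemidesmosome. Itga6 had 22038, 18624, 6933 and 17774 normalised counts in DMSO 3, 5, 15 and 20 and 25997, 21229, 22060 and 7567 in DOX 9, 12, 19 and 21. DMSO 15 and DOX 21, 1 library of each group, were far below the other 6. Itgb4 had 9862, 12727, 2091 and 8743 normalised counts in the DMSO libraries and 10179, 4435, 6506 and 3417 in the DOX libraries, again with DMSO 15 and DOX 21 lowest in their groups. Itga3 had 9808, 9401, 4910 and 9485 normalised counts in DMSO and 14289, 7634, 9945 and 5801 in DOX, with the same libraries lowest. The log2 fold changes were 0.23 ± 0.488 for Itga6, -0.45 ± 0.575 for Itgb4 and 0.16 ± 0.374 for Itga3, each with a DESeq2 adjusted p of 0.999. Itga7, the laminin receptor of muscle, stayed at 0.18 to 2.59 TPM.

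The 2 libraries that were low in these chains were also lowest of their groups in Cdh1, the epithelial cadherin, with 3187 normalised counts in DMSO 15 and 4952 in DOX 21, against 7005 to 19204 in the other DMSO libraries and 5813 to 15298 in the other DOX libraries. They are also the only male library of each group by their sex-linked genes. In bulk RNA, fewer cells of a type and less RNA per cell cannot be told apart. Of the stromal markers 6 of 8, and of the smooth muscle and mesangial markers 5 of 6, were highest in DMSO 15, with 163258 normalised counts of Col1a1, a fibrillar collagen, and 148049 of Acta2, smooth muscle actin, against at most 39405 and 25931 in any other library. Pdgfra, Pdgfrb and Rgs5 were not: Pdgfrb had 41954 normalised counts there and 66175 in DMSO 20, and Rgs5 had 4235 there and 8386 in DOX 21. The part of these cells in the levels of the chains was not tested.

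Among the receptor chains for fibronectin and other ligands with the RGD motif, Itga5 and Itgb3 were highest in DMSO 15, while Itgb6 and Itga8 were lowest there. Itga5, the fibronectin receptor chain, had 9633, 4069, 34332 and 22963 normalised counts in DMSO and 11800, 13922, 15664 and 15340 in DOX. The DMSO libraries spanned 8.44-fold and enclosed all DOX libraries, and the log2 fold change was -0.32 ± 0.592 (DESeq2 adjusted p = 0.999). Itgb3, the vitronectin receptor chain also found on platelets, had 6489, 2135, 15483 and 10975 normalised counts in DMSO and 6397, 4212, 7678 and 5521 in DOX, a log2 fold change of -0.56 ± 0.557 with the same adjusted p. Itgav, an RGD-binding α chain whose partners include Itgb5, Itgb6 and Itgb8, varied least of these. It had 9607 to 24506 normalised counts in DMSO and 13664 to 24200 in DOX, and its log2 fold change was 0.01 ± 0.350. Its 95% interval ran from -0.68 to 0.69.

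Itgb6, an epithelial chain that pairs with Itgav and binds latent TGF-β, had 4966, 5157, 1066 and 3875 normalised counts in DMSO 3, 5, 15 and 20 and 3044, 1370, 2164 and 1314 in DOX 9, 12, 19 and 21. All DOX libraries lay below 3 of the 4 DMSO libraries, and DMSO 15 lay below them all. The log2 fold change was -0.93 ± 0.532 with an unadjusted p of 0.0796 and an adjusted p of 0.999 (DESeq2). Itgb8, the other chain that binds latent TGF-β with Itgav, was low, at 0.179 TPM in DOX 19 to 7.63 TPM in DMSO 20, with a change of -1.25 ± 0.787.

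Itga8, an RGD receptor chain known from kidney mesenchyme and mesangium, was the most abundant α chain, with a median of 105 TPM over the libraries. The gene lies on the minus strand of chromosome 2, from 12106632 to 12301985 on GRCm38.p6. The sequence upstream of its start is shown because an antisense gene of the files, E030013I19Rik, runs across it: in the GENCODE annotation of the same assembly the window lies in the first exon of that gene. The window is chr2:12301995-12302194, minus strand, positions -250 to -51 from a RefSeq transcript start at 12301944, which lies just inside the end of the gene, and capitals mark E-boxes (CANNTG, which reads the same on both strands).
Itga8: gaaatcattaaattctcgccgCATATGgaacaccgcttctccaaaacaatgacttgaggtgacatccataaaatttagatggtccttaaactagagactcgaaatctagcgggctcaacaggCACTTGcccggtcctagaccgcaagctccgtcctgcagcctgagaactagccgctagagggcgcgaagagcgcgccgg

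Itga8 had 12421, 12163, 6141 and 37623 normalised counts in DMSO 3, 5, 15 and 20 and 20944, 46364, 30305 and 33840 in DOX 9, 12, 19 and 21. Of the DMSO libraries, 3 were below every DOX library, and DMSO 20, the library with the fewest detected genes, was above all but DOX 12. Over all libraries the log2 fold change was 0.94 ± 0.563 with an unadjusted p of 0.0936 and an adjusted p of 0.999 (DESeq2). Without DMSO 20 it was 1.68 with a DESeq2 adjusted p of 0.0110, and Itga8 was then the only chain called, in a comparison that called 0.314% of 15302 genes. Without both DMSO 20 and DOX 19 it was 1.74 with a DESeq2 adjusted p of 0.0182, where 0.296% of 17252 genes were called. On those same libraries edgeR gave unadjusted p-values of 0.00130 and 0.00268 and adjusted p-values of 0.953 and 0.911, so the call rested on DESeq2 and on the absence of DMSO 20.

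The antisense gene E030013I19Rik moved with Itga8 across the libraries, with 754, 973, 505 and 2315 normalised counts in the DMSO libraries and 1080, 2679, 3138 and 2844 in the DOX libraries, and it was named after its values were seen. DMSO 20 was again the high DMSO library. Its log2 fold change was 1.10 ± 0.556 with an unadjusted p of 0.0480 and an adjusted p of 0.942, and without DMSO 20 it was 1.71 with an adjusted p of 0.0433 (DESeq2). Without both DMSO 20 and DOX 19 the DESeq2 adjusted p was 0.0985, and edgeR gave adjusted p-values of 0.953 and 0.911 on those sets of libraries. The genes share 372 exonic bases on opposite strands, and the library kit does not mark strand, so reads from that stretch cannot be told apart. The count of the antisense gene was 5.16% to 10.4% of the Itga8 count in every library. Npnt, which encodes nephronectin, the basement membrane ligand of the Itga8 receptor, had 39124 ± 20998 normalised counts in DMSO and 20731 ± 11117 in DOX, a log2 fold change of -0.92 ± 0.525 with an unadjusted p of 0.0808 and an adjusted p of 0.999 (DESeq2).

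**Figure D2:**
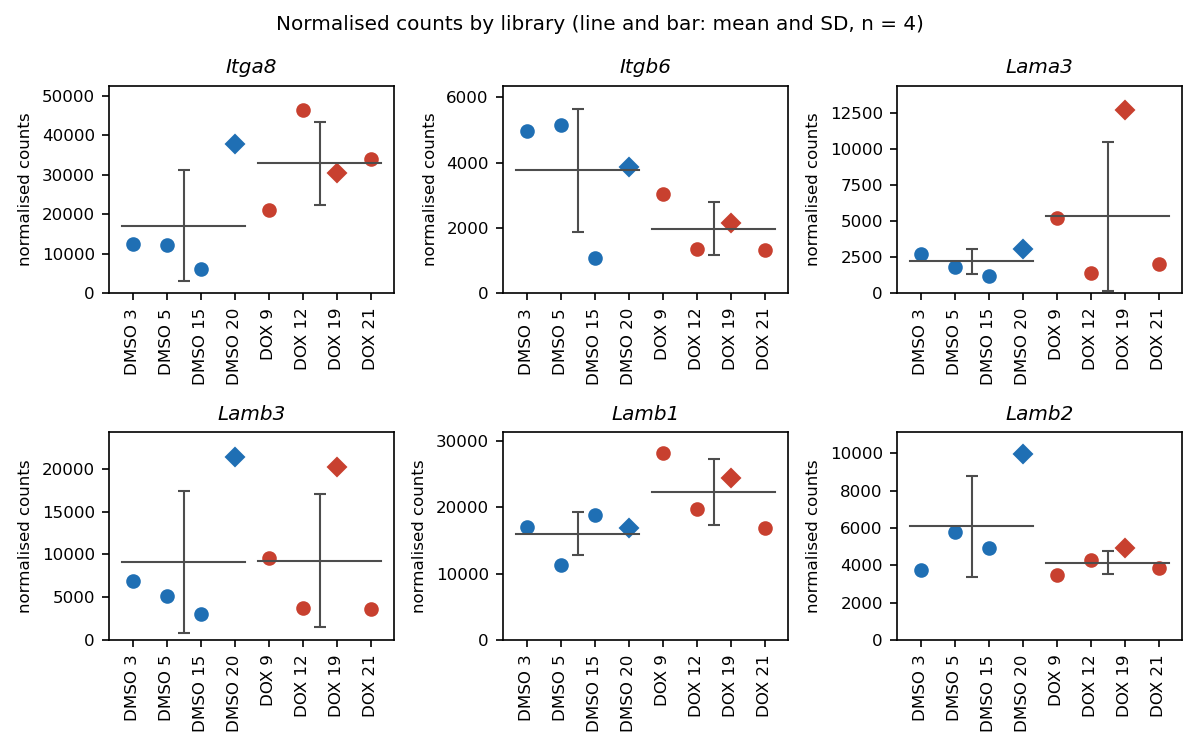
Normalised counts of 6 chains in each of the 8 libraries, with the mean and SD of each group (n = 4); blue is DMSO, red is DOX, and diamonds mark DMSO 20 and DOX 19. The groups overlap in all 6 chains; Itga8 reached 37623 in DMSO 20 against at most 12421 in the other DMSO libraries, and Lama3 reached 12665 in DOX 19.

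The collagen-binding chains were lower, and 1 of them varied most among the 21 chains with a mean of at least 1000 normalised counts. Itga11, a fibroblast collagen receptor chain, lies on the plus strand of chromosome 9, from 62677855 to 62783979. Its upstream sequence is shown as that of the chain with the widest spread among those 21; chr9:62677605-62677804, plus strand, positions -250 to -51, overlaps no annotated gene and holds an E-box in capitals.
Itga11: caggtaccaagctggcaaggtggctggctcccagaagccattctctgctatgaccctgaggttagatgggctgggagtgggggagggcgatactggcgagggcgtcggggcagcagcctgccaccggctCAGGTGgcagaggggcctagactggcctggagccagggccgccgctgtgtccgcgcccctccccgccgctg

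Itga11 had 238, 21.2, 6789 and 3302 normalised counts in DMSO 3, 5, 15 and 20 and 180, 703, 1862 and 1391 in DOX 9, 12, 19 and 21. The highest library exceeded the lowest 321-fold, and both were DMSO libraries. The log2 fold change of -1.32 ± 1.23 had a DESeq2 adjusted p of 0.999, and it was -0.20 without DMSO 15. Itga1, which binds basement membrane collagen, had 2994, 2012, 1404 and 270 normalised counts in DMSO and 1787, 1951, 1886 and 995 in DOX, with DMSO 20 far below the rest and a change of -0.01 ± 0.635. Itga2, an epithelial and platelet collagen receptor chain, had 1093 to 2096 normalised counts in DMSO and 648 to 2999 in DOX, with DOX 9 highest and a change of -0.02 ± 0.541. Itga10, known from cartilage, stayed at or below 0.68 TPM. Itga9, a chain that binds tenascin and osteopontin, had 960 to 1494 normalised counts in DMSO and 615 to 1707 in DOX, a log2 fold change of -0.09 ± 0.358.

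The integrin chains of blood cells were at or near 0. Itga2b, the platelet chain, reached 2.16 TPM in DMSO 5, Itgb2, the common leukocyte β chain, reached 1.35 TPM in DMSO 3, and Itga4, Itgae, Itgal, Itgam, Itgax and Itgb7 stayed at or below 0.84 TPM. Itgax had 7 counts in DOX 21 and 0 in every other library. These chains, together with Lama1 and Lamc3, had a count of 0 in both DMSO 20 and DOX 19, where a count of 0 allows up to 0.0469 and 0.0399 CPM (3 counts of the total, counting error only). Leukocyte markers summed to 9.91 to 30.2 TPM in DMSO and 0.0068 to 12.3 in DOX, with Cd3e, a T cell receptor component, at 0 in every library. Itga4 shares 1124 exonic bases with Cerkl on the opposite strand, so its 390 counts at most in a library are uncertain.

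**Figure D3:**
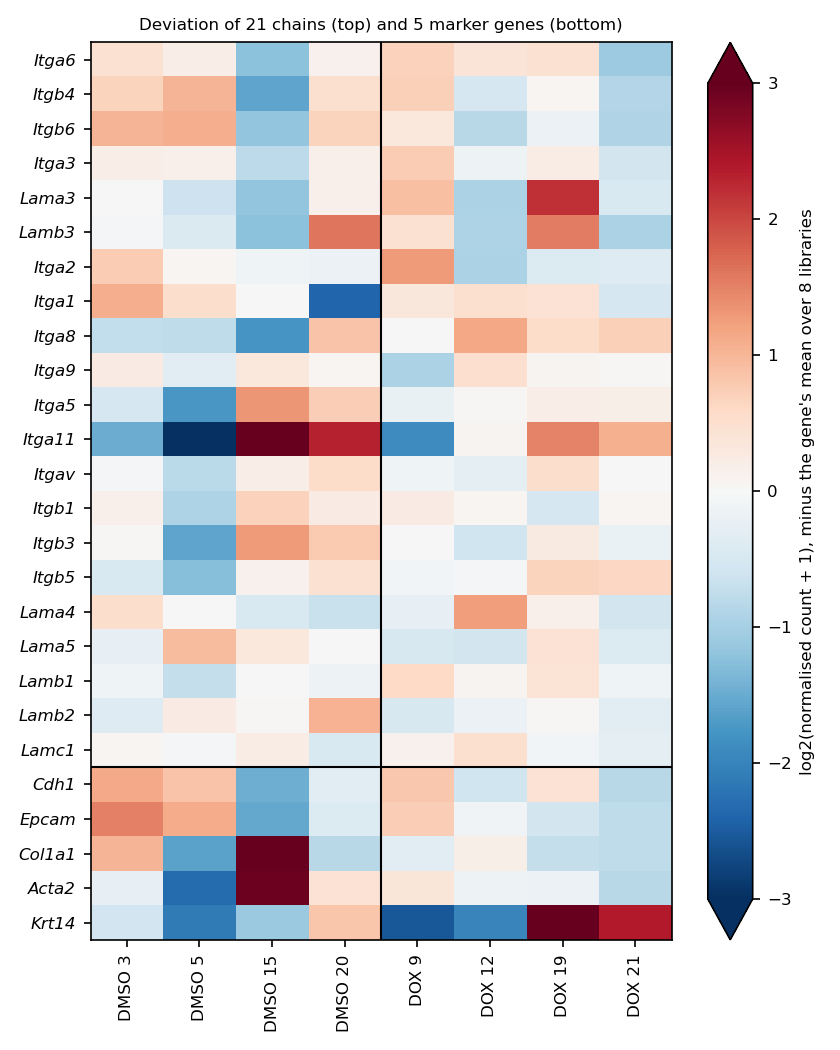
Deviation of each of the 21 chains (upper block) and 5 marker genes (lower block) from the gene's mean over the 8 libraries, in log2(normalised count + 1), red above and blue below the mean; the vertical line divides DMSO from DOX. DMSO 15 is blue in Itga6, Itgb4, Itgb6, Itga3, Lama3 and Lamb3 and in Cdh1 and Epcam, and red in Itga5, Itga11, Itgb1 and Itgb3 and in Col1a1 and Acta2.

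The laminin α chains were all low, with medians of at most 6.94 TPM. Lama5, the main α chain of mature tubule basement membrane, had 2957, 6691, 4361 and 3488 normalised counts in DMSO 3, 5, 15 and 20 and 2492, 2361, 4679 and 2622 in DOX 9, 12, 19 and 21. DOX 9, 12 and 21 were below all DMSO libraries, and DOX 19 was above 3 of them. The log2 fold change was -0.53 ± 0.373 with an unadjusted p of 0.158 and an adjusted p of 0.999 (DESeq2). Lama4, an endothelial and stromal chain, had 1152 to 2624 normalised counts in DMSO and 1254 to 4348 in DOX, a change of 0.40 ± 0.485. Lama1, the chain of the early nephron and of Matrigel, reached 3.87 TPM in DMSO 5 and was at 0 in DMSO 20 and DOX 19.

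Lama2, the chain of muscle and interstitial laminin, had the smallest p of all members. Its normalised counts were 192, 433, 463 and 69.1 in DMSO 3, 5, 15 and 20 and 154, 951, 1126 and 881 in DOX 9, 12, 19 and 21. DOX 12, 19 and 21 lay above all DMSO libraries, while DOX 9 lay below 3 of them. The log2 fold change was 1.43 ± 0.744 with a DESeq2 adjusted p of 0.963, and the level was at most 2.83 TPM.

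Lama3 and Lamb3 encode chains of the laminin that anchors hemidesmosomes in skin and other lining epithelia. The sequence upstream of a RefSeq start of Lamb3 is shown because this chain had the widest spread within groups among the 7 laminins with a mean of at least 1000 normalised counts. The gene lies on the plus strand of chromosome 1, from 193294353 to 193343878, and the window chr1:193301744-193301943 lies inside it, in an intron of longer transcripts of the GENCODE annotation. Capitals mark an E-box.
Lamb3: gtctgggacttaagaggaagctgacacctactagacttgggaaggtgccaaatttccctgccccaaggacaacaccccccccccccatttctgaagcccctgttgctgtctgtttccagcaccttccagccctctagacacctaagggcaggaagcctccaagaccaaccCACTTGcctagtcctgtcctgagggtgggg

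Lamb3 had 6833, 5160, 3006 and 21425 normalised counts in DMSO 3, 5, 15 and 20 and 9594, 3699, 20202 and 3607 in DOX 9, 12, 19 and 21. The high library of each group was the one with few detected genes, and the log2 fold change was 0.03 ± 0.752 (DESeq2 adjusted p = 0.999). Lama3 had 2735, 1816, 1215 and 3085 normalised counts in DMSO and 5180, 1429, 12665 and 2009 in DOX, a change of 1.27 ± 0.687 with an unadjusted p of 0.0656 and an adjusted p of 0.986 (DESeq2). Without DOX 19 the change was 0.39. Basal keratins were high in the same DOX library: Krt14 had 6903 normalised counts in DOX 19 and 1036 in DOX 21, against at most 351 elsewhere. Krt5 had 1580 in DOX 19 and 378 in DOX 21. Of the same list, Krt6a, Krt15 and Dsg3 were also highest in DOX 19. Trp63 was not, with 1323 normalised counts in DMSO 5 and 391 in DOX 19. In DMSO 20 Krt14 had 351 and Krt6a 350 normalised counts, while Krt5 was at 0. Basal and squamous markers as a list summed to 3.83 to 18.0 TPM in DMSO and 3.76 to 137 in DOX, with 2 of the 6 detected in every library, and their part in the levels of Lama3 and Lamb3 was not tested.

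Lamb1 and Lamc1, the chains shared by most laminins, were the steadiest members. Lamb1 had 17041, 11322, 18768 and 16800 normalised counts in DMSO and 28116, 19776, 24474 and 16826 in DOX, so that 3 DOX libraries were above all DMSO libraries. The log2 fold change was 0.48 ± 0.260 with an unadjusted p of 0.0650 and an adjusted p of 0.986 (DESeq2). Lamc1 ranged over 1.90-fold, between 4507 and 7138 normalised counts in DMSO and between 5121 and 8567 in DOX, and its change of 0.13 ± 0.250 had a 95% interval from -0.36 to 0.62. Lamb2, which replaces Lamb1 in mature glomerular basement membrane, had 3728, 5769, 4922 and 9969 normalised counts in DMSO and 3475, 4282, 4944 and 3862 in DOX. The change of Lamb2 was -0.56 ± 0.347 with an unadjusted p of 0.108 (DESeq2). Lamc3 stayed at or below 0.25 TPM. Over the 21 chains the median SD within groups was 0.744 on the log2 scale, from 0.301 for Lamc1 and 0.325 for Lamb1 to 1.20 for Lamb3 and 2.87 for Itga11, beside a median of 0.425 over 9084 genes at the same level.

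**Figure D4:**
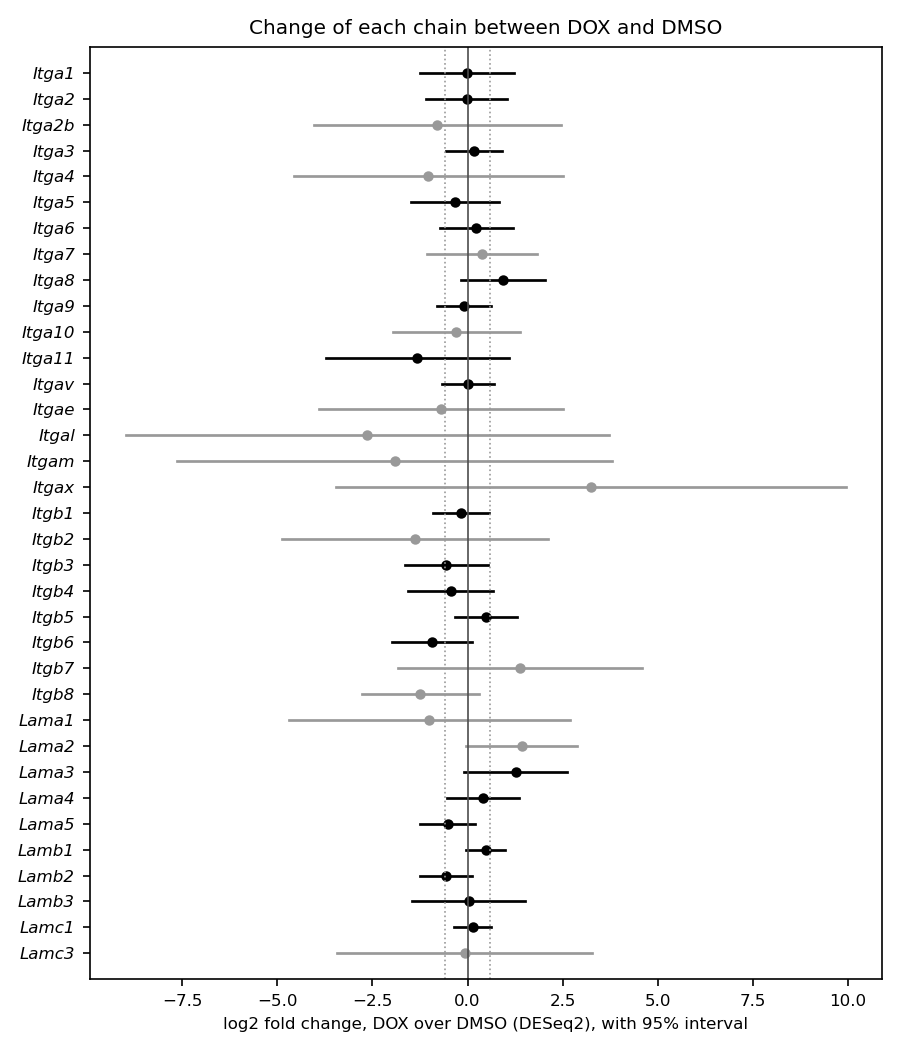
Log2 fold change of each of the 35 chains between DOX and DMSO by DESeq2 with its 95% interval; black marks chains with a mean of at least 1000 normalised counts, grey the others, and dotted lines mark 1.5-fold. Every interval crosses 0.

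Subunit balance was compared within libraries, which needs no scaling between them, as shares of TPM. Lama5 made up 24.4%, 46.9%, 49.3% and 38.2% of the laminin α chains in DMSO 3, 5, 15 and 20 and 21.7%, 16.5%, 19.7% and 31.5% in DOX 9, 12, 19 and 21. The means were 39.7% ± 11.2 and 22.4% ± 6.48 (SD, n = 4), a difference of -17.3 percentage points with p = 0.0571 by the exact two-sided permutation test over 70 assignments, or 0.114 after Benjamini-Hochberg adjustment over 4 such values. Lamb2 made up 18.3%, 34.4%, 21.2% and 37.9% of Lamb1 plus Lamb2 in DMSO and 11.3%, 18.2%, 17.2% and 19.1% in DOX. The means were 28.0% ± 9.61 and 16.4% ± 3.53, a difference of -11.5 points with the same p-values in the same exact test. In both shares the lowest DMSO library, DMSO 3, lay within the DOX range.

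The first share also depends on the levels of the other α chains: Lama5 itself had 9.60 TPM in DOX 19, above 3 of the 4 DMSO libraries, beside 28.6 TPM of Lama3, and Lama4 had its highest level, 20.8 TPM, in DOX 12. Without DMSO 3 the differences were -22.4 and -14.7 points and the groups no longer overlapped, which follows from leaving out the only DMSO library that lay within the DOX range. With any other library left out, the exact permutation p was 0.0571 to 0.114 for Lama5 and 0.0571 to 0.2 for Lamb2. The log2 ratio of Itgb4 to Itgb1 was -4.35 ± 1.76 in DMSO and -4.56 ± 0.740 in DOX (exact permutation p = 0.886). The share of Itga3 in Itga3 plus Itga6 was 39.9% ± 4.74 and 38.7% ± 7.59 (exact permutation p = 0.857). Itga6 and Itgb4 each have 2 deposited transcripts, which differed by 0.372% and 0.118% in total count. The same reads seem to be counted for both, while Itga3 and Itgb1 have 1 transcript each. The sums thus overstate Itga6 beside Itga3 and Itgb4 beside Itgb1. By most counted transcript the median was 46.7 TPM for Itga3 and 40.4 for Itga6, against 46.7 and 81.6 by sum. For Itgb4 it was 14.7 TPM against 29.7 by sum. Neither the hemidesmosome ratio nor the balance of laminin-binding α chains passed the test, and the adjusted p of both was 0.886.

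**Figure D5:**
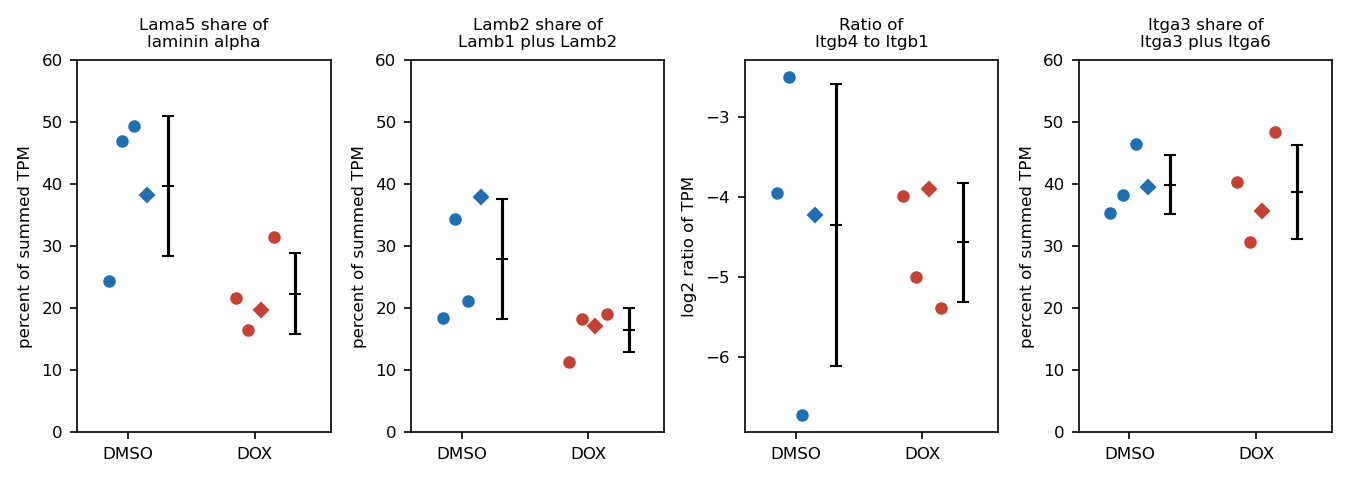
Share of Lama5 in the laminin α chains, share of Lamb2 in Lamb1 plus Lamb2, log2 ratio of Itgb4 to Itgb1, and share of Itga3 in Itga3 plus Itga6, each from TPM summed over transcripts, with 1 point per library and bars for the mean and SD (n = 4); diamonds mark DMSO 20 and DOX 19. Both laminin shares had lower means with DOX, 22.4% against 39.7% and 16.4% against 28.0%, and DMSO 3 lay within the DOX points.

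Genes that work with these chains were counted from fixed lists. Of 14 basement membrane partners of laminin, 0 were called by DESeq2, beside 0.147% of all genes, with 6 higher, 8 lower and a median log2 fold change of -0.01. Without DMSO 15, 11 were higher and 3 lower, with a median of 0.16. The most counted were Col18a1 (51194 ± 25860 normalised counts in DMSO, 72935 ± 23617 in DOX) and Nid1, the linker of laminin and collagen networks (34102 ± 20433 and 40644 ± 4390), followed by Npnt. Of 8 other laminin receptors and integrin-linked membrane proteins, 0 were called and the median was -0.25 (0.10 without DMSO 15), with Dag1, the laminin receptor dystroglycan (137014 ± 43798 and 118700 ± 27933), Rpsa and Sdc4 most counted. Of 13 ligands other than laminin, 0 were called, 1 was higher and 12 were lower, with a median of -0.57, beside 55.5% of 19634 genes that were lower. DMSO 15 was the highest library for 6 of the 13, among them Fn1 and Tnc, and without it 11 were lower, with a median of -0.40, beside 52.1% of 19478 genes. Vtn had a count above 0 in 1 library, and Fgg in 2. The most counted were Spp1 (6674990 ± 3432830 in DMSO, 5613860 ± 3258800 in DOX), Fn1 and Mfge8. An unadjusted p under 0.05 was found for 0 genes of these 3 lists, beside 4.67% of all genes.

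Of 20 cytoplasmic partners of integrins, 1, Tns1, was called by DESeq2, beside 0.147% of all genes. The list was made with the study's result for Tns1 known, so this count is no test of the list. The list had a median of 0.03, and of 0.31 without DMSO 15. Tns1, a tensin that ties β integrin tails to actin and that the study itself picked out from these libraries, was lower with DOX, at 5674 ± 344 normalised counts against 10501 ± 1342, with a log2 fold change of -0.89 ± 0.148 with a DESeq2 adjusted p of 3.16e-05. The edgeR test called 0 genes of the series. Plec, the plectin that binds Itgb4, had 78506 ± 31635 and 88755 ± 34961 normalised counts, Ilk, the integrin-linked kinase, 47868 ± 14985 and 46973 ± 3176, and its partner Lims1 25436 ± 8768 and 28478 ± 5401.

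Short motifs were searched on both strands of the 200 bases from -250 to -51 in 26 RefSeq promoters of 23 chains and in 32851 promoters in all. E-boxes (CANNTG) were in 76.9% of the promoters of the chains and 59.0% of all, and GC boxes (GGGCGG) in 30.8% and 24.6%. TEAD sites (GGAATG) were in 7.69% and 10.7%, and AP-1 sites (TGANTCA) and TATA boxes (TATAAA) were in 0% of the promoters of the chains and in 5.57% and 9.14% of all. These are counts of letters in a window and say nothing of binding.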

How the data were processed

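The authors made poly-A selected SMART-Seq v4 libraries and aligned them with STAR. Per the labels' processing notes reads were counted with featureCounts on mm10, and versions and strand settings were not given in the sources used here. Deposited counts are whole read numbers for each RefSeq transcript, and the deposited TPM is that count scaled by the authors for transcript length and library total. The deposited FPKM was not used. Counts and TPM were summed by symbol, and the most counted transcript was used as an alternative because reads shared by isoforms seem to be counted for each. Of 46 transcripts of the chains 44 matched RefSeq on GRCm38.p6.

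Total counts per library were 63922677 to 102716313. No pair of libraries agreed within sampling noise (chi-square over its degrees of freedom 328 to 1066). Groups were tested with DESeq2 1.42.0 (Wald test, R 4.3.3), fitted on all genes without covariates, with Benjamini-Hochberg adjustment, independent filtering at alpha 0.1 and the Cook's distance filter, as the study's methods name the tool. Calls needed an adjusted p up to 0.05 and 1.5-fold or more, and normalised counts are counts divided by its size factors. Alternatives were edgeR 4.0.16, limma-voom (limma 3.58.1), other size factors and filters, the sex of the library as covariate and leaving out libraries. The fits were tested on simulated data. The members and lists were chosen with earlier results of these data known. Every chain was named, those with a mean of at least 1000 normalised counts with values by library or ranges, and from each partner list the called genes or else the 3 most counted. Tns2 and Adgre1 were matched by older symbols.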

Additional observations from a re-analysis of the deposited data

Results flagged for a closer look

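In 5 of 52 groups of 4 libraries, 1 library lay far from the other 3 by Dixon's criterion. All 5 were groups of normalised counts of a chain, given here on the scale log2(normalised count + 1). Chance gives about 1 in 20 such groups, or 2.6 of 52. Itga1 in DOX 21 was low at 9.96, with the nearest library at 10.80. Itga3 in DMSO 15 was low at 12.26, with the nearest at 13.20, and Itga6 in DOX 21 was low at 12.89, with the nearest at 14.37. Lama5 in DOX 19 was high at 12.19, with the nearest at 11.36. Lama2 in DOX 9 was low at 7.28, with the nearest at 9.78. DMSO 15 and DOX 21 were also the libraries with the lowest Cdh1 counts of their groups.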

How the results depend on the processing

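The number of genes called was 25 in the comparison as reported, 0 with edgeR and 0 with limma-voom, 16 with at least 10 counts in every library, 48 with the Cook's distance filter off, 43 with the sex of the library as covariate, 51 without DMSO 20 and DOX 19, and 14 to 75 when each library was left out in turn. Chosen after seeing the data, the count without DMSO 15 and DOX 21 was 76, and edgeR without DMSO 20, or without DMSO 20 and DOX 19, called 0. The number of chains called was 0 to 1 with 1 library left out and 1 without DMSO 20 and DOX 19, which was Itga8 each time. The cause was not tested. Over 22 chains and 440 alternative values, 406 kept direction and side of the threshold, 32 changed sign without passing it and 2, both of Itga8, passed it.

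Log2 fold changes that changed sign were Itga1 with limma-voom (0.28) and without DMSO 15 and DOX 21 (0.10), Itga2 without DMSO 20 and DOX 19 (0.058 with DESeq2, 0.035 with edgeR) and without DMSO 15 and DOX 21 (0.041), Itga5 with limma-voom (0.091) and without DMSO 15 and DOX 21 (0.18), Itga11 with limma-voom (0.49), and Itgb1 without DMSO 20 and DOX 19 (0.0070) and without DMSO 15 and DOX 21 (0.057). With 1 library left out the ranges that crossed 0 were -0.37 to 0.43 for Itga1, -0.73 to 0.24 for Itga2, -0.11 to 0.34 for Itga3, -0.65 to 0.22 for Itga5, -0.017 to 0.50 for Itga6, -0.31 to 0.13 for Itga9, -0.19 to 0.21 for Itgav, -0.40 to 0.076 for Itgb1, -0.11 to 0.68 for Lama4, -0.68 to 0.89 for Lamb3 and -0.024 to 0.24 for Lamc1. The differences in subunit balance ran from -22.4 to -14.1 points for Lama5, -14.7 to -8.21 points for Lamb2, -1.01 to 0.40 for the log2 ratio of Itgb4 to Itgb1 and -4.41 to 1.55 points for Itga3.

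No paired analysis was possible because the DMSO and DOX libraries share no number. With 4 libraries a group and the spread of these chains, changes of the size seen in Itga8, Itgb6 or Lama3 did not pass either test, and a p that misses the threshold does not show that the groups were alike.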
